A study of Mus musculus with 4 samples.

Results

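Transcripts of transcription factor families carried 479 of the 28412 C-to-U sites listed for young mouse cortex, under 52 of 4206 gene symbols. The members were taken by symbol, as all those that begin with Sox, Pou, Fox, Klf, Mef2, Tcf, Nfi, Creb, Atf, Lhx, Bhlhe, Etv, Tbl1 or Ror, with Mef2c, Rorb and Crebbp left out. The rule uses symbols and no measured value. A shared prefix is not always a shared family: Sox2ot is a long noncoding RNA, Tcf25 takes part in the quality control of stalled ribosomes, and Tbl1x and Tbl1xr1 are WD40-repeat subunits of the NCoR corepressor complex.

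The list comes from scDART-seq, in which a fusion of the cytidine deaminase APOBEC1 with the m6A-binding YTH domain edits cytosines next to N6-methyladenosine (m6A), so that they are read as T. Cortex of mice aged 6 to 8 weeks at the first of 5 daily doses of tamoxifen (20 mg/kg) was dissociated 7 days after the last dose, and the cells were barcoded by splitting and pooling. All 4 samples are sublibraries of a single pool, with replicates 1 and 2 of cells labelled APOBEC1-YTH and APOBEC1-YTHmut, the latter a control with a mutated YTH domain. The deposited list has no column for sample, genotype or cell type, so the values below have no replicates, no test between conditions was possible, and editing by the 2 fusions cannot be told apart. The sources used here do not give the promoter or Cre that drives the fusions, and the labelled tissue cannot be checked per cell from a list of sites.

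Each listed site has a whole number, called the site count here, and the sources used here do not say what it counts. Read depth per sublibrary is unknown. Percentages are given with 95% Wilson intervals, which cover counting error only and treat sites as independent, although sites of a gene share its reads.

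Transcription factors bind DNA through a family-specific fold (the HMG box of Sox, the POU domain, the forkhead of Fox, the zinc fingers of Klf, the MADS box of Mef2, the basic helix-loop-helix of E proteins such as Tcf4) and set which genes a cell type expresses. Many of their mRNAs are short-lived. Methylation of adenosine in mRNA is laid down in the RAC sequence (A or G, then A, then C) by the METTL3-METTL14 complex, is frequent near stop codons and in long exons, and is read by YTH proteins that can shorten the life of the transcript. In cortex, members of these families are known for neuronal activity responses (Mef2, Creb1), hormone responses (Klf9), astrocyte identity (Sox9, Nfia) and the layers of projection neurons (Pou3f3, Sox5, Foxp1).

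The highest site counts of the members lay in 3' UTRs. Of the 10 sites with the highest count, 5 were in Klf9, 2 in Tcf4 and 1 each in Klf13, Tbl1xr1 and Pou3f3. Of those outside Tcf4, 7 are shown as the 21 bases around the edited C, 5' to 3' on the transcript strand (mm10 coordinates, sequence from GENCODE M21 transcripts). Capitals mark the edited C, the 3 bases before it and the base after it.
Klf9, chr19:23166484-23166504, plus strand, count 155: aagaaaaCAACAaaaaaaaag
Klf13, chr7:63891350-63891370, minus strand, count 118: aaaattaAAACAaaacaaaaa
Klf9, chr19:23165358-23165378, plus strand, count 79: tttaatgTAACGaccggtgtg
Tbl1xr1, chr3:22210845-22210865, plus strand, count 77: atggactTAACAaaagcttgc
Klf9, chr19:23165323-23165343, plus strand, count 67: tgcttgcTGACTctcagaatt
Klf9, chr19:23165361-23165381, plus strand, count 52: aatgtaaCGACCggtgtgctt
Pou3f3, chr1:42699967-42699987, plus strand, count 50: cattaaaTGACTtcttttaat
All 7 edited cytosines shown follow an A that follows a purine, as RAC requires. The same held for every site with a context and a count of 4 or more, in members and in other genes. The windows of the Klf9 site of count 155 and of Klf13 hold 17 A each among the 21 bases, and the other 5 shown are of mixed composition. Of all 10 sites, 4 had 17 or more A in the window. In the whole list the count of 155 ranked 346th of 28412 sites and the count of 50 ranked 1209th, so the members' top sites were high but far from the highest of the list.

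Sites were unevenly spread over the members. The annotation holds 164 protein-coding genes with these symbols, of which 51 had a listed site, 31.1%, and Sox2ot makes 52. Of all 21924 annotated protein-coding genes, 17.6% had one, and expression was not taken into account. Of the members with a site, 14 had 1 site and 14 had 10 or more. Those 14 genes held 377 of the 479 sites, or 78.7%, where the genes with 10 or more sites among all other listed genes held 66.9%. The 4 genes with the most sites, Tcf4 (62), Tcf20 (54), Nfix (46) and Klf9 (41), held 42.4% of the sites and 51.9% of the summed site count of 4420. The median member had 3 sites and the median of the 4154 other listed genes was 2. Exon length differs between them too: the members' median was 8159 nt of exon and that of the other genes 5994 nt, and per kb of exon the medians were 0.420 and 0.457 sites. The higher number of sites per member therefore did not hold per kb of exon. The 61 listed genes with symbols in Zfp, another large class of DNA-binding factors, had a median of 1 site and of 0.242 sites per kb.

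**Figure D1:**
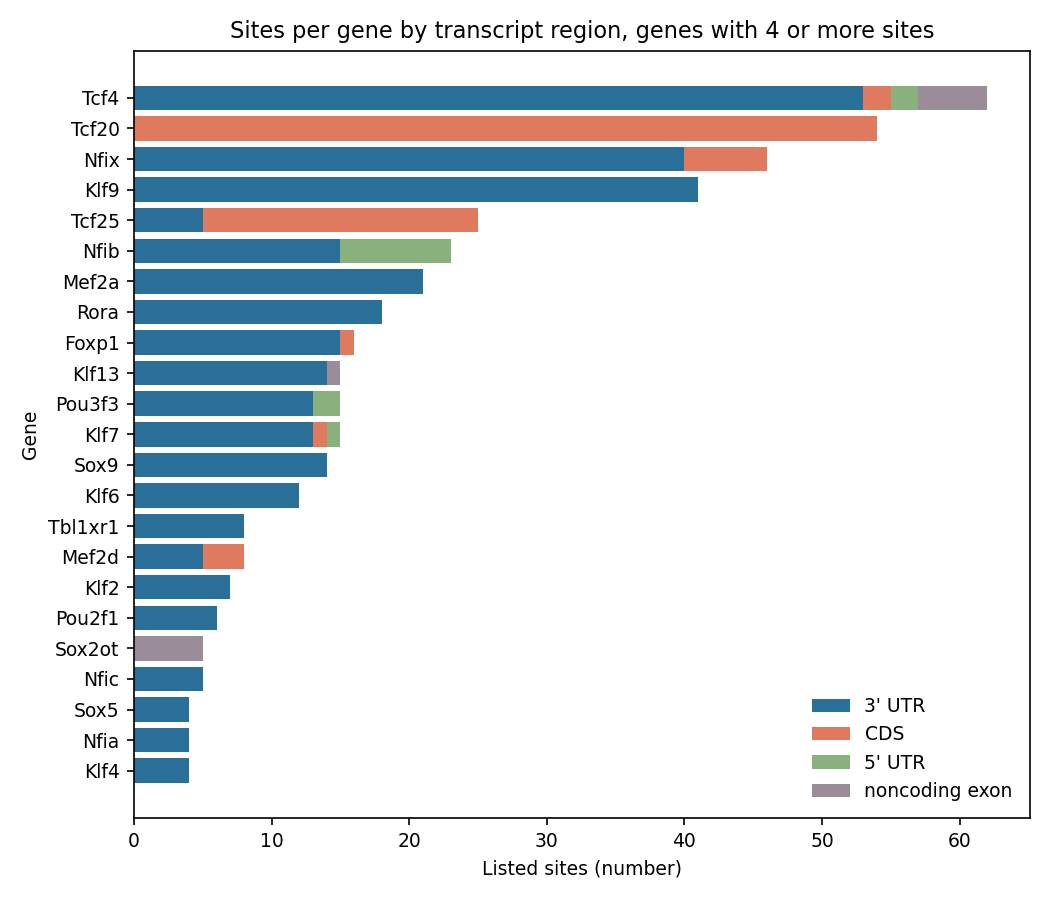
Number of listed sites (x axis) in each member with 4 or more sites (y axis), stacked by transcript region (blue 3' UTR, orange CDS, green 5' UTR, grey exon of noncoding transcripts). Tcf4 leads with 62 sites, all 54 sites of Tcf20 lie in the CDS, and all 41 sites of Klf9 lie in the 3' UTR.

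Most member sites lay in 3' UTRs. The 3' UTR held 350 of 479 sites, 73.1% (95% interval 68.9 to 76.8), against 62.0% (61.4 to 62.6) of the sites of all other listed genes and 55.6% (48.6 to 62.4) of those in Zfp genes. Coding sequence (CDS) held 103 sites, 21.5% (18.1 to 25.4), against 26.2% elsewhere. The 5' UTR held 14 sites. Exons of noncoding transcripts held 12, 2.51%, against 9.58% of the sites of other genes. These sites are counted in the totals of the 3' UTR and CDS shares, so those shares also reflect this difference. Of the 52 members, 27 had all their sites in the 3' UTR and 19 had a CDS site. CDS sites were concentrated in Tcf20 with 54 and Tcf25 with 20, and the other members with a CDS site had 29 between them, at 1 to 6 each. Without Tcf20 the 3' UTR share was 82.4% (78.4 to 85.7) and the CDS share 11.5% (8.83 to 14.9).

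Counted on both sides together, the share near the stop codon was close to that of the rest of the list, but the sides differed. Distances were measured on a gene's longest coding transcript, which carries 466 of the member sites. Within 400 nt of the stop codon, on either side, were 29.2% (25.2 to 33.5) of them and 30.2% (29.7 to 30.8) of the sites of other genes. The 200 nt after the stop codon held 70 member sites, 15.0% (12.1 to 18.6), against 12.7% (12.3 to 13.1). The 400 nt after it held 117, or 25.1% (21.4 to 29.2), against 22.4% (21.9 to 22.9). Before the stop codon the members' shares were lower. The bin from -200 to 0 nt held 3.22% against 5.22%, and that from -400 to -200 nt 0.858% against 2.63%. The median member site lay 380 nt after the stop codon and the median site of other genes 236 nt.

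**Figure D2:**
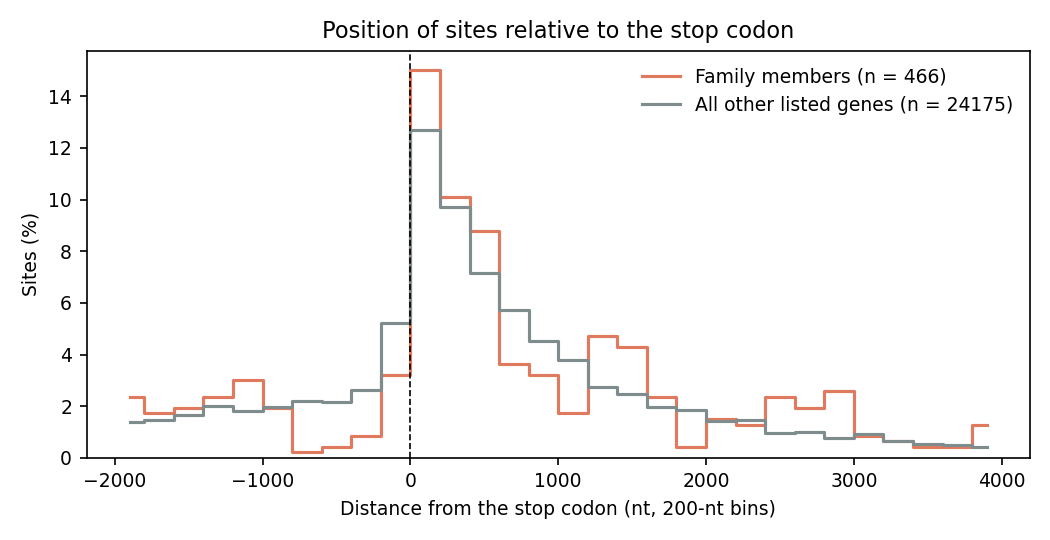
Share of sites in percent (y axis) by distance from the stop codon in 200-nt bins (x axis, positive in the 3' UTR), for 466 member sites (orange) and 24175 sites of all other listed genes (grey); the 14.4% of member sites outside the plotted range are not drawn. Both curves peak in the 200 nt after the stop codon, at 15.0% and 12.7%.

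The Krueppel-like factors, zinc finger proteins that bind GC-rich and CACCC promoter elements, had 96 sites in 7 of 17 annotated genes, and 92 of the 96 lay in 3' UTRs. Klf9, which glucocorticoids and thyroid hormone induce in neurons, had 41 sites with counts from 3 to 155 and a median of 6, summing to 728. All 41 lay in its last exon of 3452 nt on chromosome 19, between 61 and 3090 nt after the stop codon. Of these, 24 fell between 61 and 659 nt, and the site of count 155 lay at 1582 nt. At 8.52 sites per kb of exon Klf9 was the densest member. Klf13, a close relative of Klf9, had 15 sites on chromosome 7 with counts from 3 to 118 and a median of 5. Of its sites, 11 lay between 16 and 161 nt after the stop codon, and the next lay at 1069 nt. Klf7, known for its part in axon growth, had 15 sites on chromosome 1 with counts from 3 to 32 and a median of 7. Its sites gathered even closer to the stop codon, with 8 of 15 between 2 and 62 nt after it and 1 in the CDS just before it. Klf6, an early-induced factor, had 12 sites with counts from 3 to 14 and a median of 4.5. Klf2, the shear-stress factor of endothelium, had 7 sites with counts from 3 to 14, all between 31 and 394 nt after the stop codon. Klf4, one of the reprogramming factors, had 4 sites with counts from 3 to 6. Klf3, a repressor of the family, had 2 sites with counts of 5 and 10. The other 10 annotated Klf genes, among them Klf10 and Klf15, were not listed.

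Neighbouring sites often lay close together. Another site of the gene was within 10 nt for 54.7% (50.2 to 59.1) of member sites, 48.2% (47.6 to 48.8) of the sites of other genes and 36.2% (29.8 to 43.2) of those in Zfp genes. A run is a set of sites of a gene in which each lies within 10 nt of the next; of the members' sites, 217 stood alone and the others formed 101 runs. The runs of Klf7, Klf9 and Klf13 with 4 or more sites are shown with every listed C in capitals.
Klf7, chr1:64035695-64035724, minus strand: agaCatatctaaaCaaaaCaaaaCaagaCa
Klf9, chr19:23165554-23165572, plus strand: aaaCaaaaCaaCaaCaaCa
Klf13, chr7:63891346-63891363, minus strand: aaaCaaaaCaaaaaCaCc
From 5' to 3' the counts were 5, 9, 3, 7 and 22 in Klf7, 11, 7, 15, 8 and 6 in Klf9, and 118, 38, 12 and 3 in Klf13. Every C of the Klf9 run was listed, while the last base of the Klf13 stretch, the final c, was not.

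Nuclear factor I proteins bind a palindromic TTGGC element and act in gliogenesis and neuronal maturation. The prefix held 78 sites in 4 of 5 annotated genes, and 64 of the 78 lay in 3' UTRs. Nfix had 46 sites on chromosome 8 with counts from 3 to 41 and a median of 4. They formed separate groups: 21 sites lay from -97 nt (negative values are upstream of the stop codon) to 468 nt, none were listed over the next 1624 nt, and 25 lay between 2092 and 3318 nt. Its highest count, 41, was in GGACT, the context often named as the favoured m6A motif, 416 nt after the stop codon. Its second highest, 23, lay at -33 nt on the longest transcript, in an exon of 92 nt that another transcript uses as 3' UTR. Nfib had 23 sites on chromosome 4 with counts from 3 to 19 and a median of 3. Of these, 15 lay in the 3' UTR from 1360 nt after the stop codon onward, and 8 lay in the 5' UTR, the most 5' UTR sites of any member. Nfic had 5 sites with counts from 3 to 11, all between 52 and 175 nt after the stop codon. Nfia, needed for the onset of astrocyte formation, had 4 sites with counts from 3 to 7, all more than 1000 nt after the stop codon, at 1157 to 5461 nt. Nfil3, whose symbol shares the prefix but which is a bZIP repressor, was not listed.
Nfix, chr8:84708237-84708257, minus strand, count 41: ctccgctGGACTtaagcttcc
Nfix, chr8:84713774-84713794, minus strand, count 23: actttctGAACAtcccacagc
Nfib 5' UTR, chr4:82505105-82505125, minus strand, count 9: cccccaaCAACAaacaacaac
These are the 2 highest Nfix sites and the highest 5' UTR site of Nfib, with capitals as before. The Nfib site lies in a CAA-rich stretch, unlike either Nfix site.

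Symbols in Tcf name proteins of several classes. Tcf4, a basic helix-loop-helix E protein that binds E-box elements as a dimer with proneural factors, had 62 sites, rank 45 of the 4206 listed genes. Its counts ran from 3 to 100 with a median of 5 and summed to 865, the highest sum of the members. The 3' UTR held 53 of the 62 sites, and 24 lay within 400 nt after the stop codon, where the counts of 100, 59, 46 and 46 were found at 297, 188, 192 and 255 nt. Beyond 400 nt, sites of count 30 or more lay at 1308 nt (38) and 1724 nt (37). The other 9 sites lay in the CDS (2), the 5' UTR (2) and exons of noncoding transcripts (5), all with counts of 8 or less. Tcf12, another E protein, had 1 site of count 4, in an exon of a noncoding transcript, and Tcf3 was not listed. Of the HMG-box factors that mediate Wnt signals, Tcf7 had 2 sites (counts 3 and 4) and Tcf7l2 had 1 (count 5, in the 5' UTR), while Tcf7l1 was not listed.

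Tcf20, a large nuclear coregulator, had sites in the CDS alone. Its 54 sites had counts from 3 to 34 and a median of 5, and all 54 lay in exon 2 of 5, a coding exon of 5772 nt on chromosome 15. Counted from the stop codon, with negative values upstream, they ran from -5723 to -871 nt, and its 3' UTR of 1334 nt had none. Per kb, the Tcf20 CDS had 9.16 sites. For comparison, the 3' UTRs of Klf9, Nfix and Tcf4 had 12.7, 9.87 and 8.82 per kb on the same kind of transcript. Tcf25 had 25 sites on chromosome 8 with counts from 3 to 46 and a median of 3. Its CDS held 20 of them, and exon 2 of 17, 162 nt long, held 11, including the count of 46. A further 5 sites lay in the 3' UTR, with a count of 21 at the last base of the longest annotated transcript, where no full sequence context can be read. The sites with the highest count of both genes and a run of each are shown, with capitals as above.
Tcf20, chr15:82856299-82856319, minus strand, count 34: aaattttGAACAggcaaagat
Tcf20 run, chr15:82856239-82856267, minus strand: caaCagcagcaaCCacaaCctcagcaaCa
Tcf25, chr8:123381500-123381520, plus strand, count 46: aacatggAAACGcagagacca
Tcf25 run, chr8:123381499-123381519, plus strand: aaaCatggaaaCgCagagaCc
The Tcf20 run, with counts of 15, 10, 3, 4 and 10 from 5' to 3', lies in a stretch of CAG and CAA triplets. In 10 of the 54 Tcf20 windows of 21 bases the letters CAACAG occurred (searched on the transcript strand only), 18.5%, against 1.85% of windows of all genes outside these families. These letters were chosen after the values were seen, and windows of neighbouring sites overlap. CAACA was the commonest RAC context in Tcf20, with 10 of its 41 RAC sites.

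**Figure D3:**
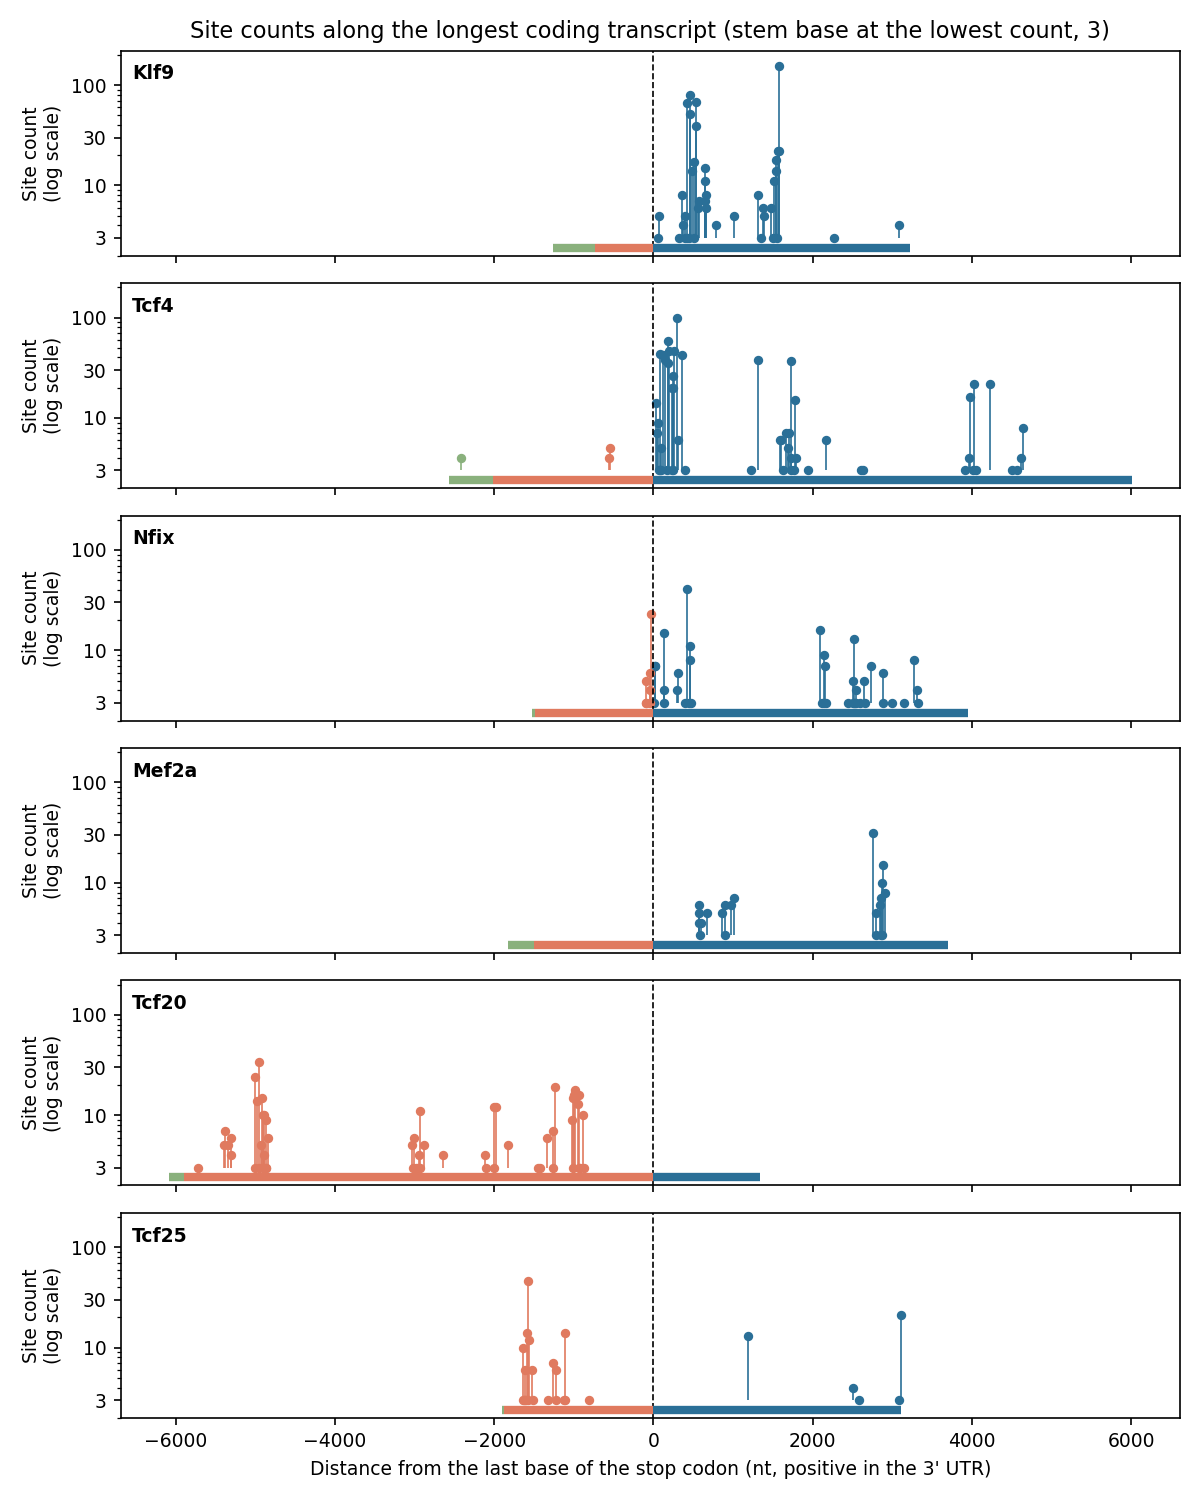
Site count (y axis, log scale) of each site against its distance from the stop codon (x axis, nt) in 6 members, on the longest coding transcript; blue is 3' UTR, orange CDS, green 5' UTR, and the bar below shows the annotated extent of each. The sites of Klf9 and Mef2a lie in the 3' UTR, those of Tcf20 in the CDS from -5723 to -871 nt, and those of Nfix in separate groups divided by 1624 nt with no site.

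Mef2 proteins are MADS-box factors whose targets control synapse number in response to calcium. Mef2a had 21 sites on chromosome 7 with counts from 3 to 31 and a median of 5, all in the 3' UTR. They formed 2 groups, 11 sites between 567 and 1008 nt and 10 between 2762 and 2905 nt after the stop codon, with 1754 nt between them. The highest count, 31, was at 2762 nt. Mef2d had 8 sites with counts from 3 to 18 and a median of 5.5. Its 3' UTR had 5 of them, among which was the count of 18, and its CDS had 3. Mef2b was not listed. Rora, a nuclear receptor that activates clock genes, had 18 sites on chromosome 9 with counts from 3 to 17 and a median of 5, all in its 3' UTR of 9285 nt. Of these, 11 lay between 37 and 861 nt and the other 7 from 3777 nt onward. Ror1 and Ror2, receptor tyrosine kinases that share only the prefix, were not listed.
Mef2a run, chr7:67231996-67232024, minus strand: tgaCagtgttgCtttaaaCtgaCttttCt
Rora run, chr9:69379039-69379058, plus strand: aaaCaataaCaaCgaagaCa
The runs show neighbouring sites in different surroundings, with counts of 6, 3, 7, 10 and 3 in Mef2a and 6, 7, 3 and 4 in Rora. In the Mef2a run, both sites of count 3 lie in contexts other than RAC.

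Of the POU and SOX factors, Pou3f3 and Sox9 had the most sites. Pou3f3, a factor of upper-layer neurons encoded by a single exon, had 15 sites on chromosome 1 with counts from 3 to 50 and a median of 3. Of these, 11 lay between 1255 and 1430 nt after the stop codon, and that group held all 7 of its sites with a count above 3. Its paralogs had fewer: Pou3f1 had 2 sites (counts 3 and 7) and Pou3f2 had 1 (count 6), all in 3' UTRs. Pou2f1, a widely expressed octamer-binding factor, had 6 sites with counts from 3 to 15, and Pou2f2 had 1 of count 3. Sox9, which marks astrocytes in adult cortex, had 14 sites on chromosome 11 with counts from 3 to 17 and a median of 4.5, all between 224 and 893 nt after the stop codon. Sox5, which acts in deep-layer neurons, had 4 sites with counts of 3, 5, 6 and 8 from 98 to 151 nt after the stop codon. Sox2 had 2 sites (counts 4 and 3, at 131 and 134 nt), Sox6 had 1 CDS site of count 12, and Sox11 had 1 of count 4. Sox10, Sox8, Sox4 and 11 other annotated Sox genes were not listed.

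Sox2ot is a long noncoding RNA whose gene, chr3:34104270-34682619 on the plus strand, spans that of Sox2 on the same strand. Its 5 sites had counts of 3, 10, 24, 15 and 7, and lay in exon 5 of 5, outside the Sox2 gene. The last 4 lie in a CAA repeat and follow each other every 3 nt.
Sox2ot run, chr3:34676611-34676624, plus strand: caaCaaCaaCaaCa
The 9 letters AACAACAAC occurred in the windows of 16 member sites outside Tcf20, 3.78% of 423, on the transcript strand only. They occurred in none of the 54 Tcf20 windows and in 0.974% of windows of all genes outside these families. The letters were chosen after this run was seen. The 16 include the overlapping windows of the run itself and of neighbouring sites in Klf9, Klf6 and Nfib, so the shares are a description only.

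Symbols in Fox had 33 sites in 9 of 46 annotated genes, where 17.6% of all annotated protein-coding genes had a site. Foxp1, a repressor of projection and striatal neurons, held 16 of the 33, on chromosome 6, with counts from 3 to 17 and a median of 5. Its sites crowd the stop codon: 11 were at 400 nt or less from it, and the count of 17 was 102 nt after it. By the region rule 15 of its sites are 3' UTR, and on the longest coding transcript 10 are, because transcripts differ in their last exons. Foxo3, a factor held in the cytoplasm by insulin signals, had 3 sites with counts of 5, 9 and 10 from 220 to 251 nt after the stop codon. Foxc1, known from brain pericytes, had 3 sites with counts of 3, 4 and 9 between 80 and 92 nt. Foxn2 and Foxn3 had 3 sites each and Foxk2 had 2, none above a count of 4. Foxj3 and Foxp4 had 1 each, with counts of 3 and 6, and Foxo1 and Foxp2 were not listed.

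The CREB and ATF factors, bZIP proteins that answer cAMP, calcium and cell stress, had few sites. Creb1, which drives activity-dependent transcription, had 2 sites with counts of 3 and 7, at 2228 and 4665 nt after the stop codon. Crebrf, a regulator named for its binding of CREB3, had 3 sites, each with a count of 4. Of the Atf symbols, Atf7 had 2 sites with counts of 3 and 4, Atf2 and Atf6 had 1 each of count 3, and Atf7ip, a cofactor of the histone methyltransferase SETDB1, had 1 CDS site of count 13. Atf4 and Atf3, the factors of the integrated stress response, were not listed, nor were any of the 4 annotated Bhlhe genes. Among the ETS factors, Etv5 had 1 CDS site of count 13, at -69 nt, and Etv6 had 3 sites, of which the highest, a CDS site of count 12, was in GGACT. Etv1 had 3 sites with counts of 3, 3 and 6. Lhx2, a LIM-homeodomain factor of the developing cortex, had 2 sites, both of count 3, and the other 7 annotated Lhx genes were not listed. Of these sites, both CDS sites of Etv6 also lie in an exon of Gm17089 on the opposite strand, 1 site of Mef2d lies in one of 1700113A16Rik and 2 of Pou2f1 lie in one of Cd247. The sources used here do not say whether reads were assigned by strand, so these 5 sites are uncertain.

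Tbl1xr1 had 8 sites with counts from 3 to 77 and a median of 5, all in the 3' UTR. Its count of 77, the fifth highest of the members, lay 428 nt after the stop codon and stood far above the other 7, none of which passed 12. Its paralog Tbl1x had 1 site, of count 17, 327 nt after the stop codon. The Tbl1x site is set beside that of Tbl1xr1 shown earlier, and beside CDS sites in which the edited C is followed by G, a context that RAC allows and DRACH does not.
Tbl1x, chrX:77660058-77660078, plus strand, count 17: aatgactGAACAgggaaggag
Atf7ip, chr6:136559895-136559915, plus strand, count 13: agctgctGAACGggagccatg
Sox6, chr7:115662405-115662425, minus strand, count 12: agagaaaGAACGgcaactctc
Mef2d, chr3:88155841-88155861, plus strand, count 6: cactgatGAACGgaaccgcca
The single sites of Atf7ip and Sox6 and the first of Mef2d share the 5 bases GAACG. In all, 13 member sites had this context, 3.34% of the 389 RAC sites, close to the 3.23% of all other listed genes.

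AAACA and CAACA were the commonest contexts of the members. RAC held 389 of the 478 sites with a full context, 81.4% (77.6 to 84.6), against 77.7% (77.3 to 78.2) in all other genes. DRACH held 56.5% (52.0 to 60.9) against 55.2% (54.7 to 55.8). The context AAACA made up 88 of the 389 RAC sites, 22.6%, against 13.8% elsewhere, and CAACA 40, 10.3%, against 5.35%. In Zfp genes AAACA made up 20.5% and CAACA 7.02%. GGAC was found at 5.14% (3.35 to 7.81) of RAC sites of the members, an interval that holds the 6.96% of other genes. All 293 member sites with a context and a count of 4 or more were in RAC, as were all 16330 such sites of other genes, whereas at a count of 3 RAC held 51.9% (44.7 to 59.0) of 185 member sites and 45.8% (44.9 to 46.8) of those of other genes. The sources used here do not say how sites were filtered.

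The 89 member sites outside RAC, all of count 3, mostly had an RAC site of the gene close by. For 65 of the 89, 73.0% (63.0 to 81.2), an RAC site of the gene lay within 10 nt, against 67.5% (66.3 to 68.7) in other genes. That RAC site lay upstream in 40 cases and downstream in 25, and its median count was 10.

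A-rich surroundings were frequent in 3' UTRs of the members. Windows with 12 or more A among the 21 bases made up 124 of 477, 26.0% (22.3 to 30.1), against 14.9% (14.5 to 15.3) in all other listed genes and 32.6% (26.4 to 39.5) in Zfp genes. In 3' UTRs the share was 31.0% (26.4 to 36.1) for members and 15.7% (15.2 to 16.2) for other genes. In the CDS it was 0.971% for members, 1 site of Tcf20, and 10.3% for other genes. Klf symbols had the share of 40.6% (31.3 to 50.6), and the members without them 22.3% (18.4 to 26.8). By gene, Klf7 had 12 such sites of its 15, Tcf4 and Klf9 11 each, Nfix 10 and Rora 8. The median count in 3' UTRs was 6 at A-rich sites and 4 at the others, both in the members and in all other listed genes.

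**Figure D4:**
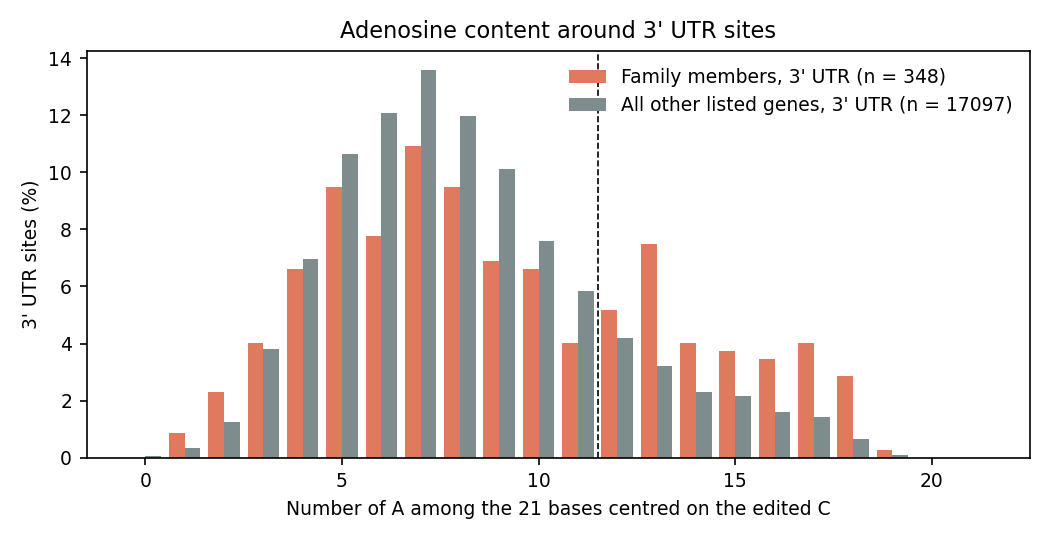
Share of sites in percent (y axis) by the number of A among the 21 bases around the edited C (x axis), for 348 3' UTR sites of the members (orange) and 17097 of all other listed genes (grey); the dashed line marks the threshold of 12. Windows with 12 or more A, to the right of it, make up 31.0% of member sites and 15.7% of the sites of other genes.

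Long exons held most of the sites. Exons of 400 nt or more held 90.8% (87.9 to 93.1) of member sites, against 80.2% (79.8 to 80.7) in other genes and 88.3% (83.0 to 92.1) in Zfp genes, and the last exon held 75.8% (71.8 to 79.4) against 70.9% (70.4 to 71.4). Near a splice junction, at 100 nt or less, lay 12.9% (10.2 to 16.2) of member sites and 20.8% (20.4 to 21.3) of the sites of other genes. In Zfp genes the share was 12.8% (8.79 to 18.2), so the members were close to that class in both measures. In the CDS these values rest on Tcf20: CDS sites in exons of 400 nt or more were 63.1% (53.5 to 71.8) with it and 22.4% (13.0 to 35.9) without it, against 44.7% (43.6 to 45.8) in other genes. CDS sites in the last exon were few, 4 of 103, or 3.88% (1.52 to 9.56), and 8.16% (3.22 to 19.2) without Tcf20, against 17.2% (16.4 to 18.1).

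In 7 lists of partners of these factors, 51 of 93 genes had a site, 54.8%, where 17.6% of all 21924 annotated protein-coding genes had one. The lists were picked by hand with earlier results of these data known, and expression was not taken into account. The contrast is therefore no result about partners. Of 11 genes of the NCoR corepressor and its nuclear receptors, with which Tbl1xr1 acts, 7 had a site, led by the corepressor Ncor1 with 31 sites, of which 29 lay in the CDS. The receptor Nr2f1 had 8. Hdac3, the deacetylase of that complex, was not listed. Of 11 regulators of Mef2 factors, 6 had a site. The calcineurin subunits Ppp3ca (73 sites, highest count 840) and Ppp3cb (30 sites) led, ahead of the anchor protein Akap6 with 9. Both subunits had more sites than Mef2a. Mef2c, which the symbol rule left out of the members, had 59, fewer than Ppp3ca and more than Ppp3cb. Of 12 partners and inhibitors of E proteins, 7 had a site, with 12 in the inhibitor Id4, 11 in the neuronal factor Neurod2 and 7 in Id2, all fewer than the 62 of Tcf4. Of 15 Wnt-pathway partners of the TCF/LEF factors, 7 had a site: the kinase Gsk3b had 20, the scaffold Apc 18, and Lef1, itself an HMG-box factor, 7 with a highest count of 101.
Of 14 regulators of FOXO factors, 9 had a site with a median of 28 sites among them, and the 14-3-3 genes Ywhag, Ywhab and Ywhae had 58, 35 and 35 where Foxo3 had 3. Of 12 coactivators and kinases of CREB, 6 had a site. The protein kinase A subunit Prkacb led with 26, then the acetyltransferase Ep300 with 4 and the kinase Rps6ka2 with 3. Crebbp, which the symbol rule left out of the members, is not among these 12 genes. It had 16 sites with a highest count of 86. Of 18 bZIP and unfolded-protein-response genes, 9 had a site, led by Jun with 15, the chaperone Hspa5 with 10 and Jund with 7 and a highest count of 122. Transcript abundance cannot be read from the list, and these numbers of sites are not set against it.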

How the data were processed

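Per the labels, the 4 samples are sublibraries of pooled barcoded cells. Reads were aligned with STAR 2.7.5 to mm10, per the submitters' processing notes, and sites were found with the Bullseye pipeline, per the series text. The authors deposited 1 list without header: position, strand, symbol and a whole number treated as an unnormalized count (lowest value 3). The sources used here do not give the filters or how the mutant fusion was used.

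Sites were matched to GENCODE M21 by symbol or its RefSeq synonym and strand: 28274 matched, 138 did not, and all 479 member sites matched and had a C. Where transcripts gave a site several regions, 3' UTR took precedence over CDS, CDS over 5' UTR, and that over noncoding exon. Distances run along the longest coding transcript, which 13 member sites are not on. In RAC the edited C follows AA or GA. DRACH also asks for A, G or T before these bases and for A, C or T after the C. Sequences are from the M21 transcripts. Placement was tested on 500 simulated positions, and 500 were recovered. Python 3.11.15, pandas 2.3.3, numpy 2.4.6, scipy 1.17.1 and matplotlib 3.10.9 were used. With no replicates and no groups, no test was run. Wilson intervals are at 95%.

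Genes named by rule were the 25 members with most sites, those of the 10 highest site counts, the top member of each prefix and the 3 genes with most sites in each of the 7 partner lists; other genes, motifs and sequences were chosen after their values were seen. Some items that the rule names are not reported here. The members and lists were chosen with earlier results of these data known. Sorted neuronal nuclei, which the series text describes, were not analysed here.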

Additional observations from a re-analysis of the deposited data

How the results depend on the processing

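Of 38 alternatives, 25 moved the value by less than its 95% interval, or a count by less than 1.5 times, and 13 moved it further. With sites of count 4 or more, the members had 294 sites and a DRACH share of 70.6%. Merging sites within 10 nt left 318 sites, RAC sites of count 4 or more numbered 293, and the DRACH share over RAC sites was 69.4%. With 1 site per gene, that of the highest count, the median count was 10, the DRACH share 71.2% and the share within 400 nt of the stop codon 38.0%. A window of 200 nt held 18.2%. The following were chosen after seeing the data. Without Tcf20, whose 54 sites are all in the CDS, the 3' UTR share was 82.4% and the CDS share 11.5%. With 1 site per gene the share of A-rich windows was 34.6%, against 26.9% in other genes. The members' value rests on 18 of 52 windows and is given without an interval, so counting error may cover this difference. With 14 or more A the share was 15.1%, against 7.24%. Fewer sites, and lower shares in a narrower window or with more A required, follow by construction. Taking the highest count of each gene favours a higher median count. DRACH is a part of RAC, and all member sites with a context and a count of 4 or more were in RAC. The DRACH shares over such sites or over RAC sites therefore leave out the sites outside RAC. For the remaining moves the cause was not tested. No paired analysis was possible because sites carry no sample or group name, and for that reason no replicate could be left out. Read depth is unknown, so a gene with no site cannot be told from one read too thinly.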

Other observations

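Windows of different members resembled each other mostly where both were A-rich. The windows of Tcf4 were left out of this search. Among the other members, 228 pairs of sites of different genes had 21-base windows equal at 17 or more positions. Of these pairs, 226 had 12 or more A in both windows, and 49 joined genes with the same prefix. Windows made mostly of A match at many positions by composition alone, so the 226 say little beyond A content. Overlapping windows of neighbouring sites recur in many pairs, so the pairs are not independent. The share of same-prefix pairs among all pairs of windows was not computed, so the 49 cannot be judged. A single pair had fewer than 12 A in both, a Mef2a site of count 6 at 975 nt after the stop codon and a Tcf7 site of count 4 at 1206 nt, equal at 18 of 21 bases.
Mef2a, chr7:67233883-67233903, minus strand: cttgtttTAACTttttagttt
Tcf7, chr11:52252667-52252687, minus strand: tttgtttTAACTttttttttt
The pair is T-rich around the same 5 bases. The genes have no prefix in common, and the pair was chosen after its values were seen.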
